A study of Mus musculus with 130 samples.

Results

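The genes Hes1, Hes6, Hey1, Id1, Id2, Id3 and Id4 encode nuclear regulators of the helix-loop-helix class, and most of them act by blocking other transcription factors. These 7 genes, of 36161 genes with a row in the count table, were singled out because they were among the genes with large rises in 2-cell mouse embryos cultured with SR1848. They were chosen by their fold change between SR1848 and DMSO embryos in these data, so that difference is described here and carries no test. Within that rule they were unequal, since Hes1 ranked 24th and Id4 ranked 694th by fold change among the genes that were higher with SR1848.

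Hes and Hey proteins are basic helix-loop-helix repressors with an Orange domain. They are best known as direct targets of Notch, a receptor that is cut by gamma-secretase after it binds a ligand on a neighbouring cell, and whose freed intracellular part joins the DNA-binding protein Rbpj. Hes1 and Hey1 recruit co-repressors, among them the Tle (Groucho) proteins, whereas Hes6 differs from its relatives and can antagonize Hes1. Id proteins have a helix-loop-helix but no basic region, so they pair with E proteins such as Tcf3 and keep these and tissue-specific partners off DNA, and BMP signalling through Smad proteins is their best known inducer. In later embryos Id2 marks trophectoderm, and Hes1 and the Id genes hold back differentiation in many progenitor cells.

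The series title ties Nr5a2, the orphan nuclear receptor also called LRH-1, to zygotic genome activation, and SR1848 serves as its small-molecule inhibitor. The tested embryos (n = 80) were given 10 µM SR1848 from 6 hours after fertilization, and the control embryos (n = 50, of 56 in the design text) received 0.1% DMSO from the same hour. Control titles carry the mark NT, while their treatment label gives 0.1% DMSO. Both groups were B6129F1 zygotes isolated at 5 hours and cultured in KSOM without oil in wet chambers, and each embryo gave 1 library by Smart-seq2, which copies full-length cDNA, here from oligo-dT primers. Shared mothers, drops or plates are not labelled, so p-values measure the spread between these embryos, which may be partly technical.

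Total estimated counts ran from 2730852 to 7824458 in SR1848 embryos and from 3173683 to 8438537 in DMSO embryos. Nr5a2 itself averaged 10.6 ± 7.76 CPM (counts scaled to library size) with SR1848 and 96.3 ± 26.9 CPM with DMSO (SD, n = 80 and 50). This difference was not used as a check of the labels. All 13 tested markers of the 2-cell stage were higher with SR1848 and all had counts in DMSO embryos. Of all tested genes 47.2% were higher and 82.6% were called in either direction. With library sizes taken from summed oocyte transcripts, 11 of the 13 markers were higher. Of the cumulus cell markers, Amhr2 had a median of 16.4 CPM in SR1848 embryos and 42.7 CPM in DMSO embryos, and 9 others had a median of 0 in both groups. SR1848 embryo 12 stood apart, with 767 CPM over the cumulus list, mostly Hsd3b1, Inha and Cyp11a1, where no other embryo of either group passed 92.9 CPM. Summed sperm markers did not pass 12.1 CPM in any SR1848 embryo or 3.77 CPM in any DMSO embryo. The alpha-globin genes of the blood list were higher with SR1848 (list sum 60.6 to 662 CPM, median 213, against 6.03 to 128 CPM, median 33.6, in DMSO embryos), while Hbb-bs, Hbb-bt, Alas2 and Ptprc had a median of 0 in both groups. Their part in the results was not tested.

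The members are short genes. In GENCODE M21 on mm10 their spans run from 1.16 kb for Id1 (chromosome 2, 152736251 to 152737410, plus strand) to 4.80 kb for Id4 (chromosome 13, 48261228 to 48266026, plus strand), where the median of 13211 tested genes was 22.4 kb and 15.7% were no longer than Id4. Hes1 lies on chromosome 16 (30064384 to 30067796, plus), Hes6 on chromosome 1 (91411483 to 91414038, minus) and Hey1 on chromosome 3 (8663359 to 8667256, minus). Id2 lies on chromosome 12 (25093799 to 25097140, minus) and Id3 on chromosome 4 (136143497 to 136145755, plus). Id4 overlaps the antisense genes A330033J07Rik and Gm49291, and the labels and processing notes do not state whether the counting used strand. The remaining 6 members overlap no other annotated gene.

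RefSeq promoter windows of 250 bases that end just before an annotated start were found for 4 of the 7 members, Hes6, Id2, Id3 and Id4, on GRCm38.p6. They are printed 5′ to 3′ on the gene's strand, because Hes6 and Id4 varied together between SR1848 embryos while Id2 did not follow them. Capitals mark the TATA box, as TATAAA or in the variant form TATAAG, and the CCAAT box, which on the opposite strand reads ATTGG. For Hes6, which has 2 annotated windows, the one shown ends at the start of its most abundant transcript. The Id3 window lies wholly inside the leading Id3 transcript of GENCODE M21 (136143497 to 136145392), so the start it is counted from is not the start of that transcript. The Id4 window ends at 48261115, upstream of the start of the Id4 transcript of GENCODE M21 (48261228). Its positions are thus not counted from that start either, and the bases next to it are not in the window.
Hes6 (chr1:91413223-91413472, minus strand): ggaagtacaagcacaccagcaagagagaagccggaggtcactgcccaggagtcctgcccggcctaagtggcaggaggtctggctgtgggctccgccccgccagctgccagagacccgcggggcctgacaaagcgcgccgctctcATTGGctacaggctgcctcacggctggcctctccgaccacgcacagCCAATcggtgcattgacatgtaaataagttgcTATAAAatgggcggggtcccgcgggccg
Id4 (chr13:48260866-48261115, plus strand): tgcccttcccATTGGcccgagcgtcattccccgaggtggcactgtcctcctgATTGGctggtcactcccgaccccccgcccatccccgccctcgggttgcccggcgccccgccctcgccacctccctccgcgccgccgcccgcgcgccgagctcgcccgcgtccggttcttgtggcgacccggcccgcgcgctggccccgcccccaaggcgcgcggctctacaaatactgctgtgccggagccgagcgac
Id3 (chr4:136143572-136143821, plus strand): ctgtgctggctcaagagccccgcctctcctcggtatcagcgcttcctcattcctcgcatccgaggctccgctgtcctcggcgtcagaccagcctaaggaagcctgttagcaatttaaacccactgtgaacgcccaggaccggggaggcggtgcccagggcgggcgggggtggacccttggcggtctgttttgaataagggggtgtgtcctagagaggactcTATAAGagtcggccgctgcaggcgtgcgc
Id2 (chr12:25096093-25096342, minus strand): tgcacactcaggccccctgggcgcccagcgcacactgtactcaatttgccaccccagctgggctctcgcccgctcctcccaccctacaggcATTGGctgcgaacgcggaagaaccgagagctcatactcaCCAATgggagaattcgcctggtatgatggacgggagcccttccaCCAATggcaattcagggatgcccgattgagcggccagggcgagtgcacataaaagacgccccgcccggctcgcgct

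The windows differed in which of the searched letters they held. The one of Hes6 held TATAAA with its first base at -28 and CCAAT at -106 and -60, counted from the annotated start. Id3 held TATAAG at -29 and no CCAAT, Id2 held CCAAT at -159, -120 and -76, and Id4 held CCAAT at -240 and -198. Other TATA-like letters, such as cataaaa near the end of the Id2 window, were not searched for. On either strand a TATA box of these forms occurred in 17.02% of 32851 RefSeq windows of the same length and CCAAT in 33.8%. GC boxes (GGGCGG), present in 32.7% of all windows, occurred in the windows of all 4 genes, 5 times in Id4. The core letters bound by Rbpj (TGGGAA, 21.6% of all windows) occurred once, in Id4, on the minus strand at -245. The letters AAGGTCA, a form of the Nr5a2 binding sequence found in 4.08% of all windows, were in none of them, which says nothing of sites elsewhere. Their GC content ran from 62.8% to 75.6%, against a median of 52.4%.

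The Hes and Hey genes are described first. Hes1, the repressor whose own message oscillates in many progenitors through negative feedback, had 29.3 to 3513 CPM in SR1848 embryos with a median of 232, against 0 to 59.7 CPM with a median of 4.91 in DMSO embryos. Of the SR1848 embryos, 77 of 80 exceeded every DMSO embryo, and 1 DMSO embryo had no Hes1 count. The log2 fold change, SR1848 over DMSO, was 5.52 (SE 0.325). The high values were not spread evenly over embryo numbers: of the 20 SR1848 embryos with the most Hes1 (471 CPM or more), 13 were numbered 61 to 80, a range with no DMSO embryo, since DMSO numbers end at 56. Hes1 averaged 840 ± 773 CPM in these 20 embryos and 254 ± 170 CPM in the 60 numbered 1 to 60 (SD), with medians of 789 and 194 CPM. Without SR1848 embryos 61 to 80, a choice made after seeing the data, the log2 fold change of Hes1 was 4.84, and 58 of the 60 embryos left exceeded every DMSO embryo. The labels do not say what the number stands for, and its part in the level of Hes1 was not tested.

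Hes6, which lacks the strong repressor activity of Hes1, had 24.2 to 869 CPM in SR1848 embryos with a median of 188, against 0 to 24.3 CPM with a median of 3.92 in DMSO embryos. The ranges met only at their edges: 79 of 80 SR1848 embryos lay above every DMSO embryo, and the lowest, embryo 51, fell under 1 of the 50. Its log2 fold change was 5.18 (SE 0.286), and 4.89 without SR1848 embryos 61 to 80.

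Hey1, a transcriptional repressor that acts in cardiovascular development and can pair with Hes1, had 26.5 to 626 CPM in SR1848 embryos with a median of 183, against 0.70 to 40.1 CPM with a median of 10.3 in DMSO embryos. Here too 79 of 80 SR1848 embryos exceeded every DMSO embryo, with a log2 fold change of 4.11 (SE 0.197). The SD of log2(CPM + 1) between SR1848 embryos was 0.87 for Hey1, 1.29 for Hes1 and 1.601 for Id4.

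The Id genes overlapped more between the groups. Id2, the inhibitor that marks trophectoderm later, had 60.5 to 1147 CPM in SR1848 embryos with a median of 272, against 1.51 to 203 CPM with a median of 18.8 in DMSO embryos. All 80 SR1848 embryos were above the DMSO median, but 50 were above every DMSO embryo. Its log2 fold change was 3.34 (SE 0.233).

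Id1, the classical BMP target, had 1.99 to 463 CPM in SR1848 embryos with a median of 116, against 2.03 to 61.4 CPM with a median of 15.5 in DMSO embryos. The lowest SR1848 embryo, number 59, lay below all 50 DMSO embryos, while 65 of 80 lay above them all. The log2 fold change of Id1 was 2.75 (SE 0.218).

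Id3, the close relative of Id1, had 3.95 to 301 CPM in SR1848 embryos with a median of 50.2, against 0.40 to 52.05 CPM with a median of 9.91 in DMSO embryos. Some 38 of 80 SR1848 embryos exceeded every DMSO embryo (log2 fold change 2.31, SE 0.229). Id4, the most divergent Id gene, had 0.16 to 160 CPM in SR1848 embryos with a median of 13.1, against 0 to 28.4 CPM with a median of 5.06 in DMSO embryos. In 20 of 80 SR1848 embryos Id4 was at or below the DMSO median, and 23 exceeded every DMSO embryo (log2 fold change 2.04, SE 0.294). Of the 60 SR1848 embryos numbered 1 to 60, 12 exceeded every DMSO embryo in Id4, and of the 20 numbered 61 to 80, 11 did, with medians of 10.2 and 36.6 CPM and a log2 fold change of 1.62 without the 20. Because these are relative abundances, more message of a gene and less of all other messages cannot be told apart, nor can a change in 1 cell of an embryo and a change in both.

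**Figure D1:**
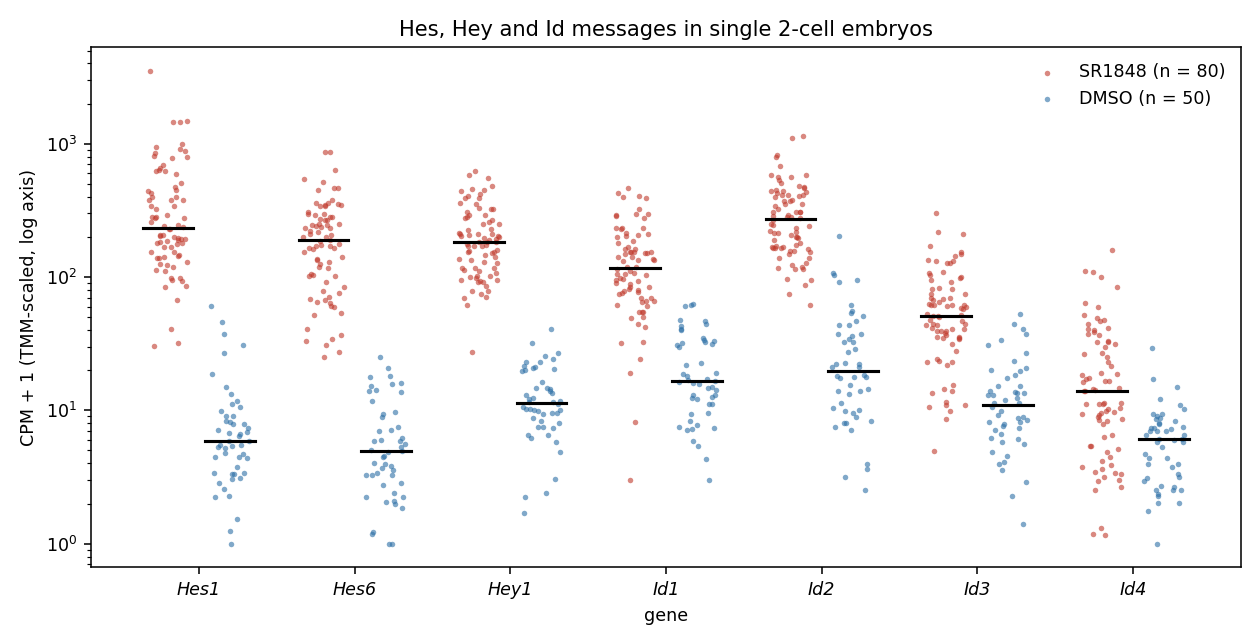
CPM + 1 (TMM-scaled, log axis) of each member in each embryo, SR1848 embryos (n = 80, red) left of DMSO embryos (n = 50, blue), with black bars at the medians. The groups nearly separate for Hes1, Hes6 and Hey1 and overlap widely for Id3 and Id4.

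Across all genes, 47.2% of 13224 tested genes passed as higher with SR1848 in edgeR's quasi-likelihood test and 35.4% as lower, so 82.6% were called. Complete separation was rare: in 0.0227% of tested genes every SR1848 embryo exceeded every DMSO embryo, and no member was among them. How many of all tested genes come as near to separation as the members was not counted. The members' counts therefore only describe genes that were chosen on this contrast. Within single SR1848 embryos the members stood above the whole DMSO range together to different degrees. All 7 members did so in 8 of 80 embryos, 6 did in 21, 5 in 34, 4 in 10 and 3 in 6. In embryo 51 the count was 1, for Hes1 at 185 CPM, at a total count of 3285833 and 14573 detected genes. That embryo also had the highest summed level of oocyte transcripts of all 130 embryos (48391 CPM). Counted against the DMSO median, all 7 members were higher in 56 embryos, 6 in 22 and 5 in 2.

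**Figure D2:**
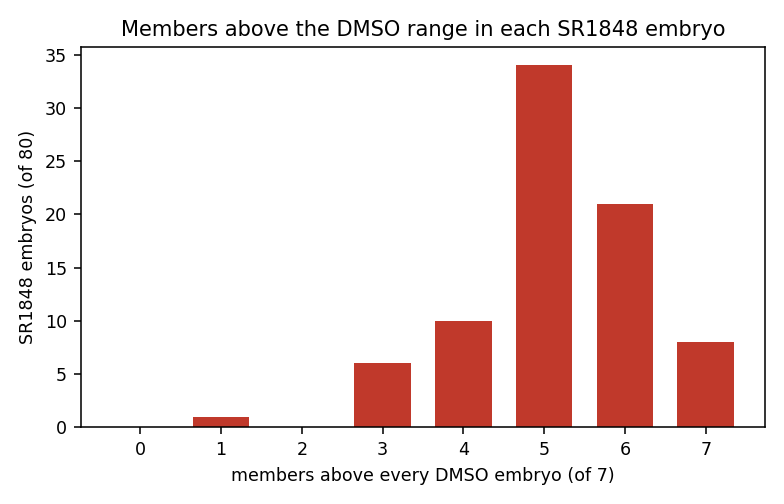
Number of SR1848 embryos (y axis, of 80) by how many of the 7 members exceeded every DMSO embryo (x axis), as bars from 0. The tallest bar is 34 embryos with 5 members, and 8 embryos had all 7.

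Levels of different genes were compared in TPM, which divides counts by transcript length before scaling. In SR1848 embryos the order of median TPM was Id2 (312), Hes1 (257), Hes6 (215), Id1 (174), Hey1 (121), Id3 (60.1) and Id4 (4.65). In DMSO embryos it was Id1 (29.4), Id2 (26.8), Id3 (13.5), Hey1 (7.46), Hes1 (5.84), Hes6 (5.17) and Id4 (2.38). The Id genes except Id4 thus led in DMSO embryos, and Hes1 and Hes6 stood next to Id2 in SR1848 embryos. Neighbours in these orders often traded places: Id2 was above Hes1 in 41 of 80 SR1848 embryos, and Hes6 above Id1 in 43. Id3 was above Id4 in 78 of 80. In DMSO embryos Id1 was above Id2 in 29 of 50, Hey1 above Hes1 in 27 and Hes1 above Hes6 in 26, and Id2 was above Id3 in 40.

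The message form was alike in both groups. The leading protein-coding transcript took 99.6% of summed Hes1 counts with SR1848 and 99.4% with DMSO, and for Hey1 99.3% and 99.7%. It took 97.7% and 97.9% for Id1, 97.6% and 98.1% for Id2, and 99.2% and 99.7% for Id3. Hes6 was the most mixed, with 95.4% of its counts on the leading form in SR1848 embryos and 96.8% in DMSO embryos, and a retained-intron form at 3.42% and 1.71%. In the authors' deposited table, the log2 fold change of the leading transcript was 5.22 for Hes1, 4.88 for Hes6, 3.78 for Hey1, 2.98 for Id2, 2.41 for Id1, 1.95 for Id3 and 1.74 for Id4.

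Whether the members were high in the same embryos was tested within each group, since co-variation among SR1848 embryos was not used to choose them. Of 21 pairs, 13 were correlated across the 80 SR1848 embryos, all positively, and 6 across the 50 DMSO embryos, also positively (Pearson and Spearman permutation tests, 100000 resamples, two-sided, Benjamini-Hochberg over the 42 pairs of both groups, both under 0.05). Hes6 was at the centre in SR1848 embryos. It was correlated with Hey1 (rho = 0.67, r = 0.67, r = 0.66 without the 2 embryos farthest from the median), with Id1 (rho = 0.66, r = 0.63, then 0.59) and with Id4 (rho = 0.66, r = 0.64, then 0.62), each with an adjusted permutation p of 5.25e-05, from the smallest p that the resamples can give. Hey1 with Id4 (rho = 0.60, r = 0.61) and Hes1 with Id4 (rho = 0.55, r = 0.57) reached the same adjusted permutation p. Among 13223 genes ranked by rho with Hes6, Hey1 was 77th, Id1 85th and Id4 86th. Other pairs that passed ranked far lower: Id3 was 1703rd by rho with Hes6, and by rho with Id1 it was 1242nd and Id2 1887th. The share of pairs among all genes that pass was not measured, so the count of 13 is not set against it.

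Id2 was the member that did not follow the others. In SR1848 embryos it passed with Id1 alone (rho = 0.30, r = 0.31, adjusted permutation p = 0.0160 and 0.0126), and with Hes1 its rho was -0.16 (r = -0.16, adjusted permutation p = 0.216 and 0.22). Against the mean of the other 6 members, rho was 0.78 for Hes6, 0.74 for Hey1, 0.68 for Id1, 0.60 for Id4, 0.38 for Hes1, 0.31 for Id3 and 0.065 for Id2. In DMSO embryos, in contrast, Id2 with Hes1 passed (rho = 0.35, r = 0.35, adjusted permutation p = 0.0306 and 0.0265). The difference between the groups' correlations was not tested. Over the 60 SR1848 embryos numbered 1 to 60, Hes1 too passed with 1 member only, Id4 (rho = 0.41). There its rho was 0.11 with Id1, -0.06 with Id2 and -0.05 with Id3.

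In DMSO embryos the closest pair was Hes1 with Id4 (rho = 0.54, r = 0.58, 0.56 without the 2 farthest embryos, adjusted permutation p = 0.000229 and 0.000115), and Id4 was the 18th of 13223 genes by rho with Hes1. Hes6 with Hey1 (rho = 0.48), Hes6 with Id1 (0.43), Id1 with Id3 (0.35) and Hes1 with Hey1 (0.34) were the others. Hes6 with Hey1, Hes6 with Id1, Hes1 with Id4 and Hes1 with Hey1 passed in both groups, and so did Id1 with Id3. Hes6 with Id4 had a rho of 0.66 in SR1848 embryos and of -0.05 in DMSO embryos.

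**Figure D3:**
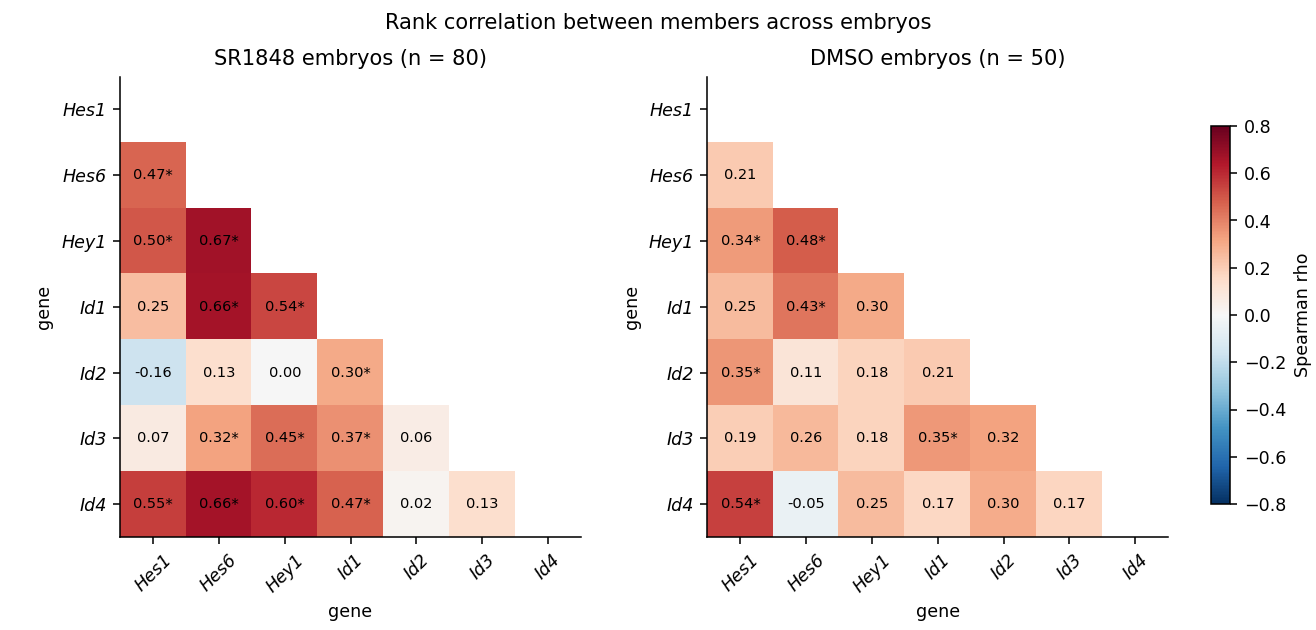
Spearman rho between log2(CPM + 1) of each pair of members, across 80 SR1848 embryos (left) and 50 DMSO embryos (right), on a colour scale from -0.8 to 0.8; asterisks mark the 13 and 6 pairs that passed. Id2 is the pale row in SR1848 embryos.

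The pairs were looked at within ranges of embryo number, which the labels do not call a batch. In SR1848 embryos 9 pairs passed among the 40 numbered up to 40 and 11 among the 40 above. In DMSO embryos 4 passed among 35 numbered up to 40 and 1 among 15 above. Hes1 had a median of 186 CPM in SR1848 embryos numbered up to 40 and of 352 CPM in those above, where its highest value (embryo 75) lay. Hes6 had medians of 188 and 183 CPM by that split, but of 293 CPM in embryos 61 to 80 and 171 CPM in embryos 1 to 60, and Hey1 of 292 and 163 CPM. Without embryo 12, with the cumulus markers, 13 pairs again passed, and its own levels ran from Id3 at 134 CPM, with 7 of the 80 SR1848 embryos higher, to Id4 at 8.18 CPM, with 52 higher. Without SR1848 embryos 61 to 80, 11 pairs passed. Hes1 with Hes6 (rho = 0.27, r = 0.26) and with Hey1 (rho = 0.27, r = 0.25) did not pass over the 60 embryos left, where over all 80 they had rho values of 0.47 and 0.50 and passed, while Hes1 with Id4 passed in both (rho = 0.41, r = 0.42 over the 60). Hes6 kept a rho of 0.61 with Hey1, 0.59 with Id1 and 0.53 with Id4, and Id2 passed with Id1 (rho = 0.41).

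No relation of the members to depth passed. None of the 7 was correlated with the total count, with the number of detected genes or with Nr5a2, in either group (56 relations, permutation tests, both adjusted p under 0.05 required), and the rho values with depth and detected genes lay between -0.23 and 0.33. The remaining Nr5a2 message of an SR1848 embryo had rho values between -0.21 and 0.10 with the members.

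The summed transcripts of 28 oocyte genes were related to them. This sum had medians of 18695 CPM in SR1848 embryos and 7918 CPM in DMSO embryos. Across SR1848 embryos it was negatively correlated with Hes6 (rho = -0.73, r = -0.72, r = -0.73 without the 2 farthest embryos), Id4 (rho = -0.73, r = -0.73, then -0.71), Id1 (rho = -0.72, r = -0.68, then -0.66) and Hey1 (rho = -0.59, r = -0.63, then -0.61), each with an adjusted permutation p of 0.00014. Hes1 passed with a smaller value (rho = -0.32, r = -0.34, then -0.37, adjusted permutation p = 0.0399 and 0.0203), and Id2 (rho = -0.26) and Id3 (rho = -0.22) did not pass. Over the 60 SR1848 embryos numbered 1 to 60, Hes1 did not pass (rho = -0.13, r = -0.15) and Id2 did (rho = -0.41, r = -0.39), beside Hes6 (rho = -0.61), Id4 (-0.64), Id1 (-0.66) and Hey1 (-0.51). Across DMSO embryos Hes1 alone passed, in the other direction (rho = 0.42, r = 0.48, then 0.37, adjusted permutation p = 0.0279 and 0.0056), a call that was lost with RLE factors, where 0 genes passed. Spin1 made up 59.6% of the summed oocyte counts in SR1848 embryos and 53.9% in DMSO embryos, and without Spin1 the rho of Hes6 in SR1848 embryos was -0.74. Of the 28 relations of SR1848 embryos to depth, Nr5a2 or oocyte transcripts, 4 passed among those numbered up to 40 and 5 among those above. CPM are shares of 1 total, so a larger share of oocyte messages leaves less for others, and the part of this in the relation was not tested.

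With the oocyte sum regressed out, a choice made after seeing the data, 7 of the 21 pairs passed in SR1848 embryos. They were Hes1 with Hes6 (rho = 0.37), Hey1 (0.38) and Id4 (0.49), Hes6 with Hey1 (0.39) and Id1 (0.29), and Hey1 with Id3 (0.37) and Id4 (0.29). Id1 with Id4 had a rho of 0.47 before and of -0.04 after. Hes6 with Id4 had 0.66 before and 0.28 after, and did not pass. Over the 60 embryos numbered 1 to 60 the same regression left 3 pairs that passed, Hes1 with Id4 (rho = 0.47), Hes6 with Hey1 (0.37) and Hey1 with Id3 (0.37), while Hes1 with Hes6 had a rho of 0.27 and with Hey1 of 0.22.

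**Figure D4:**
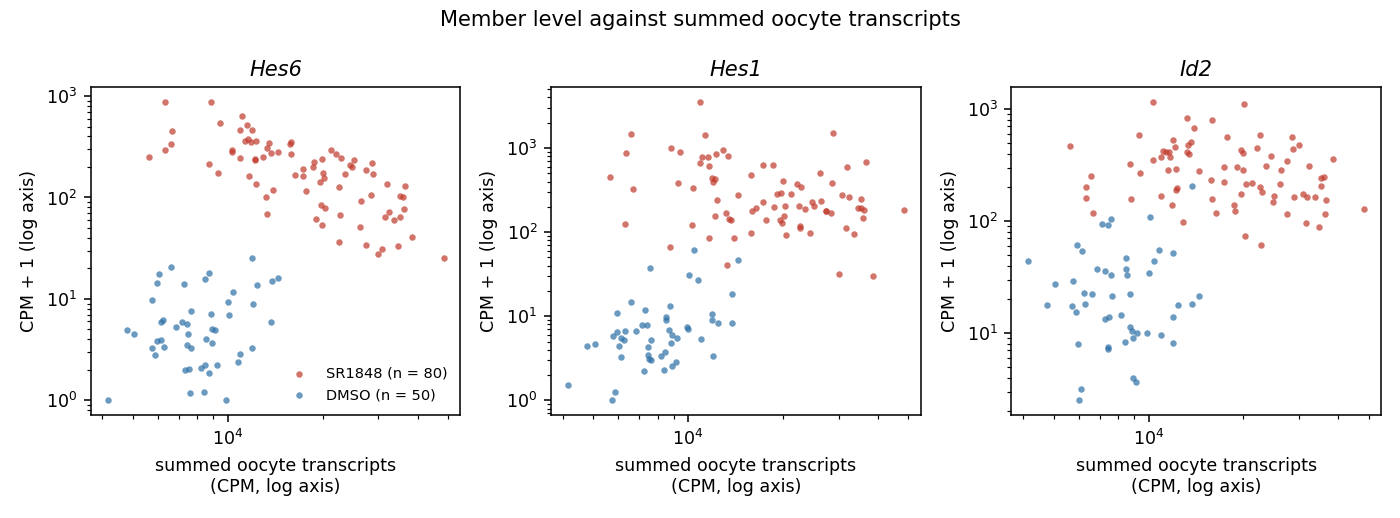
CPM + 1 of Hes6, Hes1 and Id2 (y, log axis) against the summed CPM of 28 oocyte transcripts (x, log axis), 1 point per embryo, SR1848 in red (n = 80) and DMSO in blue (n = 50). Hes6 declines along the x axis among SR1848 embryos (rho = -0.73), Id2 less so (rho = -0.26).

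The genes whose levels were most like the mean of the 7 z-scored members across the 80 SR1848 embryos were ranked by Spearman rho among 5804 genes with at least 20 CPM. They were Rpl13 (0.84), H2ax (0.83), Hspa1a (0.83), Rsrp1 (0.82), Maf1 (0.82), Tbx3 (0.82), H2aj (0.82), Rpp25 (0.81), Fth1 (0.81) and Hspa2 (0.80). Rpl13 encodes a ribosomal protein, H2ax and H2aj histone variants, Hspa1a and Hspa2 heat-shock proteins, Tbx3 a T-box repressor and Fth1 the ferritin heavy chain. The median rho of all eligible genes was 0.053 and the 99th percentile 0.71. Over the 60 embryos numbered 1 to 60 the 10 genes had rho values from 0.74 to 0.83. Across the 50 DMSO embryos the same genes had rho values from -0.18 for Rpl13 and -0.03 for Rpp25 to 0.48 for Fth1 and 0.55 for Hspa1a.

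Notch pathway genes were measured to see how the machinery above Hes and Hey stood. Of 48 listed genes 33 were tested, of which 18 rose, 9 fell and 6 did not pass, so the share called was close to that of all genes (82.6%). With library sizes taken from the oocyte transcripts, which shifts the all-gene median on the log2 scale to -0.71, against 0.30 with TMM, the same lists had 5 higher and 17 lower. Among ligands and receptors the ligand Jag2 rose to 54.4 ± 32.4 CPM with SR1848, against 17.5 ± 9.04 CPM with DMSO (log2 fold change 1.63, SE 0.153, edgeR adjusted p = 6.86e-19). The ligand Dll1 averaged 7.36 ± 13.2 CPM with SR1848 and 0.596 ± 1.48 CPM with DMSO (log2 fold change 3.56, SE 0.603, edgeR adjusted p = 5.82e-08). Its median in DMSO embryos was 0 CPM, so the filter kept Dll1 only with counts from SR1848 embryos. The rise of Dll1 was thus partly fixed by the filter. Jag1 rose by 0.85 on the log2 scale but had -0.19 under the oocyte scaling. The receptor Notch1 averaged 3.22 CPM with SR1848 and 1.30 CPM with DMSO (log2 fold change 1.29, a call lost under the oocyte scaling with 0.46), whereas Notch2 averaged 5.73 and 9.50 CPM (-0.72); Notch1, Notch2, Rbpj, Kat2b and Nrarp were picked here after their values were seen.

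Of 17 tested genes of Notch processing, 10 rose, 4 fell and 3 did not pass. Furin, the protease that matures the receptor, rose to 154 ± 102 CPM with SR1848, against 39.97 ± 19.7 CPM with DMSO (log2 fold change 1.94, SE 0.159). Aph1a, which encodes a gamma-secretase subunit, rose by 1.19 and did not pass under the oocyte scaling (0.094). In the nucleus 4 of 10 tested genes rose, 4 fell and 2 did not pass. The deacetylase gene Hdac1 fell to 50.7 ± 24.2 CPM with SR1848, against 266 ± 88.4 CPM with DMSO (log2 fold change -2.39, SE 0.107), and the acetyltransferase genes Ep300 and Kat2b fell by 1.48 and 3.41. Rbpj itself rose little (115 ± 58.8 CPM with SR1848 and 87.9 ± 24.4 CPM with DMSO, log2 fold change 0.38, edgeR adjusted p = 0.000738). It did not pass with RLE factors (0.21), total counts (0.13) or DESeq2 (0.21) and turned to -0.63 under the oocyte scaling. Nrarp, a feedback target of Notch, rose to 26.6 ± 34.3 CPM, against 8.66 ± 6.61 CPM with DMSO (log2 fold change 1.61, SE 0.299), and Dtx2 rose by 1.71.

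BMP and TGF-beta genes were measured in the same way for the Id genes. Of 55 listed genes 35 were tested, of which 22 rose, 6 fell and 7 did not pass, a share called close to that of all genes (82.6%), with 10 higher and 11 lower under the oocyte scaling. Of 11 tested ligands 10 rose and Gdf3 fell, where 47.2% of all tested genes rose. Under the oocyte scaling 5 of these ligands were higher and 1 was lower. The most abundant ligand gene, Bmp15, and Gdf9 encode oocyte-secreted factors. Bmp5 (means of 792 CPM with SR1848 and 322 CPM with DMSO) and Tgfb2 (622 and 289 CPM), picked after their values were seen, lay between them. Bmp15 stood at 826 ± 730 CPM with SR1848 and 349 ± 133 CPM with DMSO (log2 fold change 1.24). Gdf9 stood at 288 ± 88.9 and 144 ± 46.5 CPM (0.997). Under the oocyte scaling Bmp15 and Gdf9 turned to -0.16 and -0.095. Both are among the oocyte transcripts that set this scaling, so these values are partly fixed by it. Tgfb3 rose by 1.79 and Bmp6 by 1.23, of which Bmp6 lost its call under that scaling (0.29). Bmp4 and Bmp7, inducers of Id genes in later embryos that were picked after their values were seen, averaged 14.1 ± 21.8 and 10.7 ± 18.7 CPM with SR1848 against 1.13 ± 1.52 and 2.32 ± 4.56 CPM with DMSO (log2 fold changes 3.61 and 2.17). Their medians in DMSO embryos were 0.42 and 0.34 CPM, and the filter may have kept both through SR1848 embryos.

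The receptors split, with 4 higher, 3 lower and 3 not passing of 10 tested. Bmpr1b rose to 74.5 ± 28.1 CPM with SR1848, against 25.7 ± 10.3 CPM with DMSO (log2 fold change 1.53, SE 0.113), while Bmpr1a, picked after its values were seen, fell by 1.52. Tgfbr2 rose by 3.69 from a low level, at 5.03 ± 8.96 CPM with SR1848 and 0.368 ± 0.432 CPM with DMSO. Its median in DMSO embryos was 0.21 CPM, and the filter may have kept it through SR1848 embryos. Bmpr2 rose by 0.73 but had -0.31 under the oocyte scaling. Of the 6 Smad genes tested, 4 rose and 2 did not pass, and under the oocyte scaling none rose and 1 fell. Smad5, which carries BMP signals, rose by 1.24, the TGF-beta mediator Smad3 by 1.05 and the shared partner Smad4 by 0.81, with 0.24, 0.11 and -0.12 under the oocyte scaling.

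Of 8 tested modulators 4 rose, 2 fell and 2 did not pass. Bambi, a decoy receptor that is itself a BMP target, rose to 401 ± 321 CPM with SR1848, against 51.5 ± 39.7 CPM with DMSO (log2 fold change 2.96, SE 0.230, edgeR adjusted p = 2.64e-24), and kept 2.46 under the oocyte scaling. Ski and Smurf1, which dampen Smad signals, rose by 1.68 and 1.70. Smad7, the inhibitory Smad, picked after its values were seen, fell to 4.25 ± 8.08 CPM, against 20.6 ± 10.9 CPM with DMSO (log2 fold change -2.27, SE 0.305).

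Relatives and partners of the members were the last group. Of 9 other Hes and Hey family genes only Bhlhe40 and Bhlhe41 had enough counts to be tested, and both rose, by 1.53 and 1.6 (Bhlhe40 with 0.45 under the oocyte scaling, where it lost its call). Hes2, Hes3, Hes5, Hes7, Hey2, Heyl and Helt were below the filter, with group means of at most 5.11 CPM (Hes5 with SR1848). Of 5 tested Tle co-repressor genes Tle5 and Tle6 rose by 1.82 and 0.71, Tle3 fell by 1.90 and 2 did not pass, and Tle6 had -0.24 under the oocyte scaling. Tcf3, an E protein gene and so a partner of Id proteins, rose to 35.01 ± 19.9 CPM with SR1848, against 13.2 ± 6.19 CPM with DMSO (log2 fold change 1.41, SE 0.137). Tcf12 and Tcf4 did not pass, at 41.4 ± 33.2 and 10.1 ± 7.85 CPM with SR1848 against 34.6 ± 15.7 and 7.92 ± 5.31 CPM with DMSO.

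Most of the 43 listed tissue-specific bHLH genes, which Id proteins and Hes repressors oppose, were below the filter. Of the 8 tested 7 rose and Hand1 fell, where 47.2% of all tested genes rose and 82.6% were called. Ascl2, Atoh1 and Sohlh2 had a median of 0 CPM in DMSO embryos, so the filter kept them only with counts from SR1848 embryos. For such genes a rise was partly fixed by the filter, and the 7 of 8 carry no conclusion about the list. DMSO medians were also low for Olig1 (1.33 CPM), Bhlhe23 (1.16 CPM) and Tcf15 (1.80 CPM), so the filter may have kept these through SR1848 embryos too. Ascl2, Bhlhe23, Tcf15 and Sohlh2 were picked here after their values were seen. Under the oocyte scaling 5 of the 8 tested were higher and 1 lower, and Tcf15 (0.39) and Sohlh2 (0.21) lost their calls. Olig1, an oligodendrocyte factor, rose to 160 ± 135 CPM with SR1848, against 2.07 ± 2.84 CPM with DMSO (log2 fold change 6.25, SE 0.349, edgeR adjusted p = 5.22e-36). Mesp2, a somite factor, rose to 258 ± 192 CPM, against 42.7 ± 33.6 CPM with DMSO (log2 fold change 2.59, SE 0.188). Atoh1, a neural factor, averaged 8.19 ± 12.3 CPM with SR1848 and 0.0396 ± 0.228 CPM with DMSO, where its fitted log2 fold change of 7.09 rests on few reads in DMSO embryos.

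**Figure D5:**
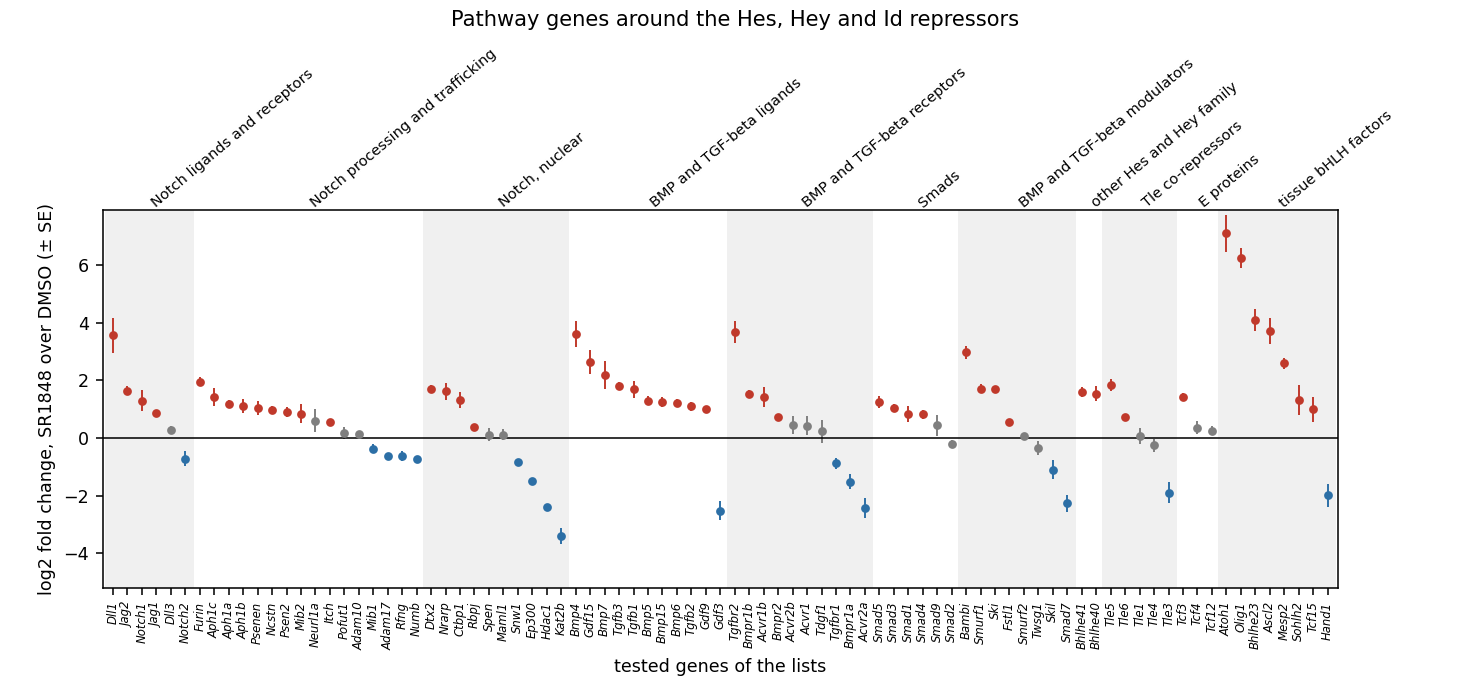
Log2 fold change, SR1848 over DMSO, with its SE for tested genes of the Notch, BMP and TGF-beta and bHLH lists, ordered within each list; red points rose, blue points fell and grey points did not pass (edgeR adjusted p, threshold 0.05). Values above 2.9 include Atoh1, Olig1, Dll1, Bmp4, Tgfbr2 and Bambi.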

How the data were processed

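Single-embryo Smart-seq2 libraries were quantified by the authors as estimated counts per transcript, and the submitters' processing notes name kallisto 0.46.1, Trim Galore 0.6.2, bcl2fastq, DESeq2 1.32.0, R 3.5.1 and the builds mm10 and hg19, with no role for hg19. A table of log2 values that the authors deposited equals log2(count / size factor + 1) within 5.33e-14 and served only for that check. The authors' deposited comparison per transcript gives log2 fold changes, p-values, a mean signal and a test score, of which only the log2 fold changes of the members are quoted.

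Estimated counts were summed per gene (36161 genes) and rounded. Transcripts took their gene from the authors' table (117282) or from GENCODE M21 (379), and 1692 without a gene (0.734% of counts) and 5 other entries (0.0258%) were left out. Smart-seq2 has no molecular identifiers; SEs and p-values come from the spread between embryos, not from treating reads as separate molecules. Genes kept by filterByExpr (13224) were fitted with edgeR 4.0.16 (R 4.3.3), using TMM factors, estimateDisp and a robust quasi-likelihood fit, and p-values of the two-sided glmQLFTest were adjusted by Benjamini-Hochberg over all of them (threshold 0.05). The filter could keep a gene through SR1848 embryos alone, which favours rises in the counts for every list. Each SE is the size of the log2 fold change divided by the square root of F. On simulated counts for these 13224 genes the fit recovered 77% of genes changed by 1 on the log2 scale and 99% of those changed by 2. Correlations used log2(CPM + 1) with Python 3.11.15 and scipy 1.17.1, and motifs were searched as exact letters on both strands.

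The members and the gene lists were chosen with earlier results of these data known. Named are the 7 members, Nr5a2, from each list at most the 3 genes of smallest p together with its most abundant gene, and the 10 genes most like the members' mean; others are marked, and 1 gene under this rule is not reported here. Embryos were grouped by title. No libraries agreed within sampling noise (lowest chi-square per gene 18.1). Embryos with the same number in both groups did not deviate together (50 numbers, correlations from -0.23 to 0.14, 3 above 0.1), so the numbers were not taken as pairs. Alternatives were other scalings, filters and pseudocounts, DESeq2 1.42.0, limma-voom (limma 3.58.1), depth or detected genes as covariates, leaving out 1 embryo of low complexity, SR1848 embryo 12 or SR1848 embryos 61 to 80, and the embryo number as a block.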

Additional observations from a re-analysis of the deposited data

How the results depend on the processing

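The log2 fold changes of the 7 members kept their sign under 15 alternatives each, with 4.84 to 5.71 for Hes1, 4.62 to 5.56 for Hes6, 3.46 to 4.24 for Hey1, 2.11 to 2.89 for Id1, 2.47 to 3.74 for Id2, 1.52 to 2.45 for Id3 and 1.51 to 2.16 for Id4. Without a filter 17695 genes passed instead of 10922, because more genes were tested, and 38 bHLH family and partner genes instead of 14; with a mean of at least 5 CPM it was 9. The samples share only a number, and with the replicate block (limma-voom on the 50 same-numbered embryos) 10866 genes passed, 25 of the Notch lists, 29 of the BMP and TGF-beta lists and 14 of the bHLH lists; 1 of 50 SR1848 embryos correlated best with its own number. Of the calls with TMM 57.1% were higher, and 52.4% with RLE factors, 50.1% with total counts and 20.9% with oocyte transcripts as library size.

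Under the oocyte scaling, log2 fold changes turned to -0.19 for Jag1, -0.095 for Gdf9, -0.16 for Bmp15, -0.31 for Bmpr2, -0.12 for Smad4, -0.24 for Tle6, -0.71 for Tcf12, -0.74 for Tcf4, -0.63 for Rbpj and -0.41 for Smad1. Gdf9 and Bmp15 are part of the oocyte sum that sets this scaling, so their values are partly fixed by it. Tcf12 also turned with total counts (-0.0075) and with the replicate block (-0.051), and without SR1848 embryos 61 to 80 (-0.026). Scaling shifts all genes; the cause of the last 2 values was not tested.

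Of 21 pairs in SR1848 embryos 13 passed with TMM, 21 with oocyte transcripts as library size, which puts the same divisor into both genes of a pair, and 7 with the oocyte sum regressed out, or 3 with that regression without SR1848 embryos 61 to 80, a smaller set (3 in DMSO embryos, adjusted with them). In DMSO embryos 1 pair passed among the 15 embryos numbered above 40, a smaller set. The relation of DMSO embryos to the oocyte sum counted 1 gene, 2 without Spin1, 0 among embryos numbered above 40 and 0 with RLE factors, where the cause was not tested. Leaving out SR1848 embryo 12 or embryos 61 to 80, the splits by number, the regression on the oocyte sum and the sum without Spin1 were chosen after seeing the data. Low levels limit Id4, whose SR1848 minimum was 0.16 CPM.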

Other observations

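The members were also set beside 6 pathway genes that were picked after their values were seen, across the 80 SR1848 embryos (42 relations, permutation tests of 100000 resamples, two-sided, Benjamini-Hochberg over the 42). Bambi, the BMP decoy receptor, was correlated with Hes6 (rho = 0.72, r = 0.69, r = 0.71 without the 2 embryos farthest from the median), Id4 (rho = 0.70, r = 0.61, then 0.70) and Hes1 (rho = 0.64, r = 0.65, then 0.69), each with an adjusted permutation p of 3.23e-05 for rho. With Id2 it had a rho of 0.00059 (r = -0.070, adjusted permutation p = 0.996). Nrarp, the Notch feedback gene, was correlated with Id4 (rho = 0.60, r = 0.58, then 0.57) and Hes6 (rho = 0.59, r = 0.57, then 0.64), with the same adjusted permutation p. Olig1 was correlated with Hes6 (rho = 0.74, r = 0.75, then 0.74) and Hey1 (rho = 0.73, r = 0.71, then 0.68), again with that adjusted permutation p.

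Of the 6 genes Id2 was positively correlated with Bmp4 (rho = 0.42, r = 0.35, then 0.36, adjusted permutation p = 0.00028 and 0.00272), while with Jag2 rho was -0.28 (r = -0.21, adjusted permutation p = 0.0201 and 0.0844). Id1 was also correlated with Bmp4 (rho = 0.34, r = 0.27, adjusted permutation p = 0.00449 and 0.0269), and Id3 had low values with Nrarp (rho = 0.016) and Dll1 (rho = 0.034). Jag2 was correlated with Hey1 (rho = 0.50, r = 0.41, then 0.46, adjusted permutation p = 8.4e-05 and 0.000364) and Hes1 (rho = 0.44, r = 0.39, then 0.49, adjusted permutation p = 0.000131 and 0.000766). Dll1 with Hes1 had a rho of 0.019 (r = 0.11, adjusted permutation p = 0.909). Over the 60 SR1848 embryos numbered 1 to 60 the relations given as correlated here passed again, with a rho of 0.52 for Bambi and Hes1. These relations share the libraries and the oocyte share of counts, whose part in them was not tested.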
